A study of Mus musculus with 42 samples.

Results

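The ADAM and ADAMTS genes encode a family of zinc metalloproteases and related proteins. They are described here across joint soft tissue and lymph nodes of mice in a study of knee arthroplasty. Members were chosen by name: every row of the 2 count tables whose Ensembl ID maps to a mouse symbol made of Adam, Adamts or Adamtsl followed by a number, with a letter allowed after the number of an Adam gene. The rule found 57 genes, 33 ADAM, 19 ADAMTS and 5 ADAMTSL, all annotated as protein coding. The joint table held 52 of them among 36604 genes and the node table held all 57 among 54752 genes. Adam6a, Adam26a, Adam26b, Adam29 and Adam39 had no row in the joint table.

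All mice were wild type C57BL/6, and RNA sequencing was run on 24 libraries of joint soft tissue and 18 libraries of lymph nodes. The joint libraries formed 6 groups of 4, labelled RST at days 3, 7, 14, 21 and 35 and LST at day 35, codes that the labels do not spell out. LST was sampled at day 35 alone, so between LST and the RST groups of days 3 to 21 the code and the day cannot be told apart. The node libraries formed 6 groups of 3, with Implant, ContraImplant and NoImplant nodes at days 7 and 14. By the animal numbers in the labels, ContraImplant nodes came from the same mice as Implant nodes and NoImplant nodes from other mice. The column names mark Implant nodes with surgery, and ContraImplant and NoImplant nodes without it, so implant and surgery cannot be told apart. The sample descriptions give the code R for Implant and NoImplant nodes and L for ContraImplant nodes. Between Implant and ContraImplant nodes that code cannot be told apart from the implant either. Whether the 4 joint replicates of a group are 4 animals is not stated, and a p-value for joint tissue therefore sets a difference against library-to-library spread that may be technical.

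ADAM proteins sit in the cell membrane and cut the outer parts of other membrane proteins, a process called shedding that frees cytokines, growth factors and receptors. ADAMTS proteins are secreted, bind the extracellular matrix through thrombospondin repeats and cut matrix proteins such as aggrecan, versican and procollagens. ADAMTS-like proteins share the matrix-binding part and lack the protease domain, and several ADAM proteins have a protease domain without an active site.

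The active site binds zinc through 3 histidines in a short conserved stretch, and its coding bases show which members carry it. A search of the longest coding transcript of each member in GENCODE M21 (mm10) for the reprolysin form of the site (histidine, glutamate, any residue, glycine, histidine, 2 residues of any kind, then glycine, asparagine or serine, 2 further residues and histidine) found it in 20 of 33 ADAM, 19 of 19 ADAMTS and 0 of 5 ADAMTSL genes. The 33 bases are shown for 7 members on which the results below turn, 5′ to 3′ on the coding strand, with the codons of the 3 histidines in capitals.
Adam8: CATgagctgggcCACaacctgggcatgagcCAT
Adam12: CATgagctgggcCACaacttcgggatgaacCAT
Adam10: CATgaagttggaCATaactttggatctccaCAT
Adamts2: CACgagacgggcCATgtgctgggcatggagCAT
Adamts16: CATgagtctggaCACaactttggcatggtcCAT
Adamts4: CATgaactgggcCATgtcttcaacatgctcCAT
Adamts8: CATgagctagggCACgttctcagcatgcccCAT
The sites lie, in mm10, for Adam8 at chr7:139987893-139987925 (minus strand), Adam12 at chr7:133961158-133961190 (minus strand) and Adam10 at chr9:70754296-70761585 (plus strand). Those of the secreted members lie for Adamts2 at chr11:50775403-50776134 (plus strand), Adamts16 at chr13:70787149-70791812 (minus strand), Adamts4 at chr1:171253210-171253915 (plus strand) and Adamts8 at chr9:30952721-30953378 (plus strand). All 19 ADAMTS sites and 1 ADAM site, that of Adam10, are split by an intron, and the other 19 ADAM sites lie within 1 exon. Between Adam8 and Adam12, 29 of the 33 bases were identical, and between Adam8 and Adam10, 19 of 33. Adamts1, Adamts4, Adamts9, Adamts15 and Adamts20, all counted here with the proteoglycanases, have an asparagine codon in the variable place, Adamts8 a serine codon, and the other 33 members with the site a glycine codon.

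Levels are given as CPM, the usual unit of gene counts scaled to the total count of the library, on a scale corrected for library composition, and levels of different genes are compared only as CPM per kilobase of exon. Total counts ranged from 17842090 to 28024003 per joint library and from 22041900 to 44371001 per node library. Genes with too few counts were set aside, which left 37 members tested in joint tissue (14 ADAM, 18 ADAMTS, 5 ADAMTSL) and 36 in nodes. Of the 15 joint members set aside, none exceeded 0.453 CPM in any library (Adam32), and of the 21 node members set aside, 8 had a count of 0 in every library and none exceeded 0.401 CPM (Adamts18). A count of 3 corresponds to 0.0954 to 0.17 CPM in joint libraries and 0.067 to 0.135 CPM in node libraries, which is the level that a count of 0 allows; these limits cover counting error only.

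Joint libraries of a group were not equally close. At RST day 21, replicate 2 held the highest level of its group in 25 of the 37 tested members, and at RST day 14 replicate 2 did so in 28 of 37. Replicate 3 did so in 24 of 37 at RST day 7, and replicate 4 in 22 of 37 at RST day 35. Counts of members called that changed by over 1.5 times without a library are given with and without it.

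Most members were higher in RST than in LST soft tissue through day 21, and 1 passed the test at day 35. Against the same 4 LST libraries, 22 of the 37 tested members were higher and 5 lower at RST day 3, where 68.7% of all 16149 tested genes were called (38.6% higher, 30.1% lower). At RST day 7, 29 members were higher and 2 lower, with 76.1% of all genes called (41% higher, 35.1% lower). At RST day 14, 27 members were higher and 1 lower, with 57.9% of all genes called (33.4% higher, 24.5% lower), and at RST day 21, 22 were higher and 1 lower, with 27.1% called (21.7% higher, 5.42% lower). At RST day 35, 1 member was higher and none lower, with 2.97% called (2.92% higher, 0.0495% lower). Calls are at an edgeR adjusted p below 0.05. Without replicate 2, 17 members were called at RST day 21 (15.2% of all genes) and 26 at RST day 14 (46.8%). The median log2 fold change of the 37 members was 0.78 at day 3, 1.79 at day 7, 1.14 at day 14, 0.81 at day 21 and 0.23 at day 35, beside 0.09, 0.08, 0.03, 0.02 and 0.02 over all tested genes. These 5 comparisons share the LST libraries and are not independent of each other.

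**Figure D1:**
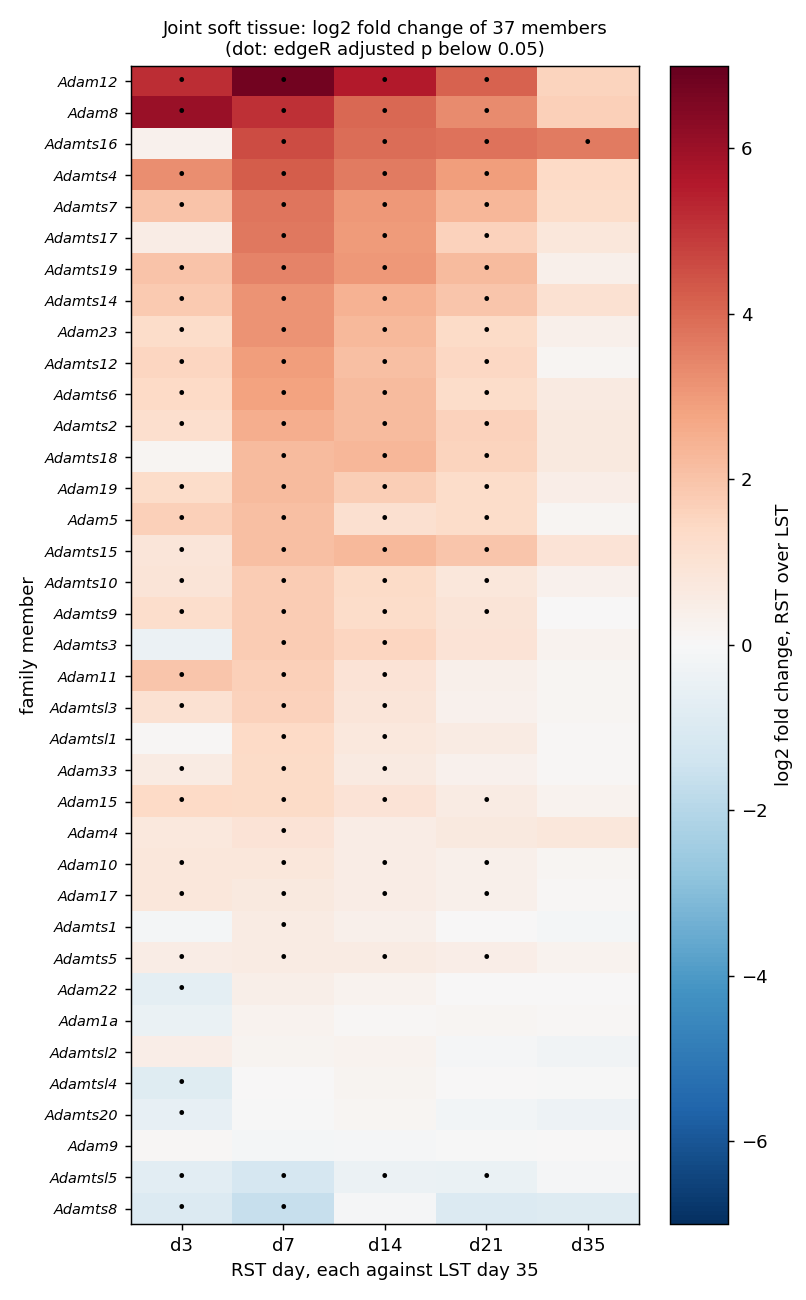
Log2 fold change of the 37 tested members (rows, ordered by day 7) at each RST day against LST day 35 (columns); red is higher and blue lower in RST, and a dot marks an edgeR adjusted p below 0.05. The column of day 7 has 31 dots and that of day 35 has 1, in the row of Adamts16.

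Cell markers also differed between the joint groups. The summed level of 8 macrophage markers was 1370 to 2190 CPM at RST day 3 and 1090 to 1530 CPM at RST day 7, against 73.9 to 102 CPM in LST, and that of 10 fibroblast markers was 26200 to 34500 CPM at RST day 7, against 825 to 932 CPM in LST. At RST day 35 these sums were 212 to 373 CPM and 2270 to 3710 CPM. The 9 chondrocyte markers summed to 464 to 538 CPM at RST day 7, against 39 to 54.4 CPM in LST, and the 14 mature muscle markers to 70800 to 117000 CPM, against 227000 to 249000 CPM. No marker of these 4 lists was at 0 in any joint group, and their part in the results was not tested. With scaling factors computed without muscle and mitochondrial genes, the counts of members called at RST days 3, 7, 14, 21 and 35 were 27, 32, 28, 23 and 1. In bulk tissue, fewer cells of a type and less RNA per cell cannot be told apart.

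Among the membrane sheddases, 7 of 8 tested were higher at RST day 3 and 7 of 8 at RST day 7. Over all tested genes, 38.6% were higher at day 3 and 41% at day 7. Adam8 and Adam12 had the largest differences of the family. Adam8 encodes a sheddase found on myeloid cells. Adam8 had 117, 65.7, 61.8 and 68.6 CPM at RST day 3 and 36.5, 34.9, 49.6 and 42.8 CPM at RST day 7, against 1.37, 1.19, 1.11 and 1.07 CPM in LST. Its RST levels lay above every LST library at all 5 days, and its mean was highest at day 3. It had 20.7, 29.7, 11.7 and 14.1 CPM at RST day 14, 6.9, 23.9, 4.5 and 10.4 CPM at RST day 21 and 2.61, 2.43, 4.06 and 6.21 CPM at RST day 35. The difference from LST was 6.04 ± 0.48 (adjusted p = 5.95e-10) at day 3 and 5.11 ± 0.47 (adjusted p = 3.29e-09) at day 7, on the log2 scale with its SE (edgeR). At day 35 it was 1.69 ± 0.52 (adjusted p = 0.0867), although the 4 RST libraries did not overlap the 4 LST libraries.

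Adam12, also called meltrin alpha, is known from mesenchymal cells and regenerating muscle. Adam12 had 22.4, 29.7, 27.4 and 26.3 CPM at RST day 3 and 72.8, 74, 92.6 and 82.4 CPM at RST day 7, against 1.27, 0.775, 0.639 and 0.205 CPM in LST. The groups did not overlap, and the mean was highest at day 7. It had 30.8, 61.1, 19.1 and 23.8 CPM at RST day 14, 7.75, 28, 5.54 and 9.12 CPM at RST day 21 and 3.04, 2.05, 1.34 and 2.21 CPM at RST day 35. At days 14 and 21 replicate 2 had the highest level, 61.1 and 28 CPM, above the other libraries of its day. The log2 difference from LST was 5.17 ± 0.52 (adjusted p = 1.68e-08) at day 3, 6.77 ± 0.53 (adjusted p = 4.55e-10) at day 7 and 1.56 ± 0.63 (adjusted p = 0.262) at day 35 (edgeR).

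The sheddases with the widest known substrate range moved less. Adam10 had 58.5, 62, 64.3 and 55.2 CPM at RST day 7, against 32.8, 30.1, 38.5 and 35.3 CPM in LST. Adam10 cuts Notch receptors and many other membrane proteins, and its 4 libraries at RST day 7 lay above the LST libraries. Adam17 had 45.5, 45.1, 51.8 and 45.1 CPM at RST day 7, against 27.5, 27, 31.2 and 29.3 CPM in LST. Adam17, the protease that frees tumour necrosis factor, likewise did not overlap. The log2 differences at day 7 were 0.81 ± 0.11 (adjusted p = 8.42e-07) for Adam10 and 0.71 ± 0.10 (adjusted p = 2.02e-06) for Adam17, and at day 35 they were 0.15 ± 0.11 (adjusted p = 0.723) and 0.09 ± 0.10 (adjusted p = 0.89) (edgeR). Adam9 had 104, 114, 113 and 106 CPM at RST day 7, against 119, 127, 115 and 125 CPM in LST. Adam9, a broadly expressed sheddase, did not pass the test at day 7 (-0.15 ± 0.07, edgeR adjusted p = 0.0569). Its 4 RST libraries lay below the LST libraries, as did those of 32.9% of all tested genes. With 3 other scalings or tools (median ratios, factors without muscle genes, DESeq2) the value was -0.19, -0.18 and -0.19 with adjusted p of 0.0223, 0.0276 and 0.0109. It also passed with only the groups compared, without LST replicate 3 and with the replicate number as a block. In the other alternatives it missed the threshold.

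Adam19, Adam15 and Adam33 were also higher. Adam19, which sheds neuregulins, averaged 36 ± 1.9 CPM at RST day 7 and 7.9 ± 1.25 CPM in LST (SD, n = 4 each), Adam15, which binds integrins, 49.3 ± 4.28 CPM at RST day 7 and 19.6 ± 2.64 CPM in LST and Adam33, known from mesenchymal cells of the airway, 11.8 ± 1.08 CPM at RST day 7 and 4.65 ± 1.43 CPM in LST. Their log2 differences were 2.19 ± 0.21 (adjusted p = 5.92e-09), 1.33 ± 0.14 (adjusted p = 1.28e-08) and 1.35 ± 0.18 (adjusted p = 6.27e-07) in the same order (edgeR). Of the exon bases of Adam15, 20.6% are shared with a gene on the opposite strand, and the strand setting of the counting is not given in the sources used here. Adam28, named for lymphocytes in human, had counts in 4 of 24 joint libraries and at most 1 count in any, so it was not tested.

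The ADAM proteins of nerve that have no active site bind LGI proteins rather than cutting substrates. Adam23 averaged 11.2 ± 1.8 CPM at RST day 7 and 1.29 ± 0.227 CPM in LST (SD, n = 4 each). Adam11 had 4.13, 5.54, 2.56 and 3.13 CPM at RST day 3 and 2.87, 3.12, 3.8 and 2.95 CPM at RST day 7, against 0.895, 1.05, 1.24 and 0.819 CPM in LST. Neither gene's RST libraries of day 7 overlapped LST. Both were higher, by 3.12 ± 0.29 (adjusted p = 3.62e-09) and 1.66 ± 0.23 (adjusted p = 1.07e-06) on the log2 scale (edgeR), and Adam11 by 1.93 ± 0.23 (adjusted p = 1.89e-07) at day 3, its highest RST day. Adam22 had 1.25, 2.01, 2.22 and 2 CPM at RST day 3, against 3.72, 2.6, 2.85 and 3.07 CPM in LST. Adam22 fell at day 3, by 0.70 ± 0.21 on the log2 scale (edgeR adjusted p = 0.00489), with all 4 RST libraries below the LST libraries, and did not pass at day 7 (0.40 ± 0.20, adjusted p = 0.0714). Of the 7 Schwann cell markers, 5 were lower and none higher at RST day 3 (median log2 difference -1.16), where 30.1% of all genes were lower. At day 7, 5 were lower and 1 higher (median -1.35), where 35.1% of all genes were lower (edgeR). The summed level of these markers was 63.2 to 83 CPM at RST day 3 and 70.8 to 84.7 CPM at day 7, against 55.4 to 206 CPM in LST. Their part in the result was not tested.

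The proteoglycanases cut aggrecan and versican, the large proteoglycans of cartilage and provisional matrix, and they did not move together. Of 7 tested, 4 were higher and 2 lower at RST day 3, where 38.6% of all genes were higher and 30.1% lower. At day 7, 5 were higher and 1 lower, where 41% of all genes were higher and 35.1% lower. Adamts4 had 11.6, 16, 10.9 and 12.7 CPM at RST day 3 and 24.2, 24.2, 27.6 and 28 CPM at RST day 7, against 1.46, 0.957, 1.32 and 1.74 CPM in LST. Adamts4, an aggrecanase, was above every LST library at both days. It had 16.5, 26.8, 8.91 and 15.2 CPM at RST day 14, 6.11, 22.1, 4.39 and 8.42 CPM at RST day 21 and 3.65, 3.67, 1.77 and 5.44 CPM at RST day 35. Its log2 difference was 4.25 ± 0.44 (adjusted p = 1.7e-08) at day 7 and 1.41 ± 0.47 (adjusted p = 0.129) at day 35 (edgeR), where again no RST library overlapped LST.

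Adamts5 had 27.4, 32.3, 41.6 and 35.3 CPM at RST day 7, against 22.3, 23, 25.5 and 22.6 CPM in LST. Adamts5, the other main aggrecanase of mouse cartilage, stood above LST in all 4 libraries by a smaller log2 difference of 0.55 ± 0.15 (adjusted p = 0.0026) (edgeR), and its highest RST day mean was 1.26 times its lowest. Adamts1 had 51.5, 64.5, 75.5 and 82.1 CPM at RST day 7, against 35.8, 41.2, 48.6 and 56.4 CPM in LST. For Adamts1, which cuts versican, the lowest RST library lay below the highest LST library. Adamts9, also versican-cleaving, averaged 19.4 ± 2.7 CPM at RST day 7 and 5.62 ± 2.13 CPM in LST (SD, n = 4 each). Adamts1 and Adamts9 had log2 differences of 0.59 ± 0.20 (adjusted p = 0.0114) and 1.79 ± 0.24 (adjusted p = 5.79e-07) (edgeR). Adamts15 differed by 2.12 ± 0.27 (edgeR adjusted p = 3.36e-07), and its mean was highest at day 14. Adamts20 fell at day 3, by 0.58 ± 0.15 (edgeR adjusted p = 0.00142), and was -0.01 ± 0.15 (adjusted p = 0.975) at day 7.

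Adamts8 had 2, 2.73, 4.4 and 3.13 CPM at RST day 3 and 1.41, 2.67, 1.7 and 1.8 CPM at RST day 7, against 3.06, 7.8, 7.71 and 5.22 CPM in LST. Adamts8 was the member with the lowest fold at day 7, and all 4 RST libraries of that day lay below LST, where replicate 1 was the lowest. It fell by 0.96 ± 0.39 on the log2 scale at day 3 (edgeR adjusted p = 0.0321) and by 1.64 ± 0.40 at day 7 (edgeR adjusted p = 0.00075). It had 11.2, 2.35, 6.65 and 2.97 CPM at RST day 14, 3.45, 3.35, 2.58 and 2.97 CPM at RST day 21 and 3.37, 2.64, 2.06 and 4.82 CPM at RST day 35. At RST day 14 its libraries spread from 2.35 to 11.2 CPM and overlapped LST. Of its exon bases, 10.6% are shared with a gene on the opposite strand.

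The 3 procollagen N-proteinases, which remove the amino propeptides of fibrillar procollagens so that fibrils can form, were all higher at RST day 7. Of all tested genes, 41% were higher at that day. Adamts2 had 44.4, 45.7, 47.3 and 53.9 CPM at RST day 3 and 113, 123, 142 and 122 CPM at RST day 7, against 21.1, 20.5, 21.3 and 21.7 CPM in LST. Adamts2 was the second of the family by level per kilobase at RST day 7, 13.4 ± 1.34 CPM per kilobase, after Adam9 at 26.6 ± 1.2 (SD, n = 4 each), and its groups did not overlap. It had 92.6, 142, 73 and 88.4 CPM at RST day 14, 46.5, 101, 43.2 and 69.5 CPM at RST day 21 and 30.9, 33.1, 30.7 and 43.4 CPM at RST day 35. The log2 difference was 2.56 ± 0.22 (adjusted p = 1.3e-09) at day 7 and 0.70 ± 0.21 (adjusted p = 0.0761) at day 35 (edgeR), where its 4 RST libraries lay above LST. Adamts14 had 10.2, 5.95, 4.23 and 7.88 CPM at RST day 3 and 14.6, 19.9, 21 and 15.2 CPM at RST day 7, against 1.74, 1.5, 2.47 and 2.25 CPM in LST. Adamts14 was above LST in every RST library of both days, by 1.82 ± 0.41 (adjusted p = 0.000437) at day 3 and 3.15 ± 0.40 (adjusted p = 3.32e-07) at day 7 (edgeR). Adamts3, which also activates the lymphatic growth factor VEGF-C, averaged 3.94 ± 0.663 CPM at RST day 7 and 1.14 ± 0.277 CPM in LST, and was -0.39 ± 0.39 (adjusted p = 0.386) at day 3 and 1.79 ± 0.35 (adjusted p = 7.08e-05) at day 7 on the log2 scale (edgeR).

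Adamts7 and Adamts12 cleave cartilage oligomeric matrix protein. Adamts7 had 4.69, 4.05, 4.44 and 3.96 CPM at RST day 3 and 13.1, 15.1, 15.4 and 13 CPM at RST day 7, against 1.18, 1.14, 0.937 and 0.972 CPM in LST. No RST library overlapped LST. It had 8.37, 11.7, 5.76 and 8.73 CPM at RST day 14, 3.17, 10.5, 2.85 and 4.01 CPM at RST day 21 and 1.9, 2.37, 2.44 and 3.44 CPM at RST day 35. The log2 difference of Adamts7 was 3.74 ± 0.33 (adjusted p = 2.13e-09) at day 7 (edgeR) and 1.26 ± 0.36 (adjusted p = 0.0582) at day 35. Adamts12 averaged 38.5 ± 6.85 CPM at RST day 7 and 5.18 ± 0.94 CPM in LST (SD, n = 4 each), a log2 difference of 2.90 ± 0.27 (adjusted p = 3.36e-09) (edgeR). At day 35 Adamts12 had returned to 5.64 ± 0.628 CPM, a log2 difference of 0.12 ± 0.28 (adjusted p = 0.957).

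In the group that holds the ADAMTS of fibrillin microfibrils and those with less known substrates, all 6 tested members were higher at RST days 7, 14 and 21, and 3 of 6 at day 3. Over all tested genes, 38.6% were higher at day 3, 41% at day 7, 33.4% at day 14 and 21.7% at day 21. Adamts16, reported to cleave fibronectin, rose after day 3. Adamts16 had 0.789, 0.9, 0.769 and 0.83 CPM at RST day 3 and 13.8, 15.6, 20 and 13.9 CPM at RST day 7, against 0.754, 0.684, 0.511 and 0.716 CPM in LST. At day 3 the RST libraries were within 0.769 to 0.9 CPM and lay just above the LST libraries, a difference that did not pass the test (0.31 ± 0.59, adjusted p = 0.653), and at day 7 they lay far above it. It had 8.9, 14.2, 5.81 and 11.5 CPM at RST day 14, 6, 17.6, 3.46 and 9.56 CPM at RST day 21 and 4.27, 9, 4.78 and 14.6 CPM at RST day 35. Its level at day 35 was 51.6% of that at day 7, against a median of 36.3% over the 37 tested members (range 2.68% for Adam12 to 212% for Adamtsl5). The log2 difference from LST was 4.57 ± 0.48 (adjusted p = 2.02e-08) at day 7 and 3.61 ± 0.49 (adjusted p = 0.000141) at day 35 (edgeR), and with other settings or a library left out the day 35 value was 3.16 to 3.82 with an adjusted p of at most 0.00158.

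Adamts17 had 0.418, 0.485, 0.513 and 0.603 CPM at RST day 3 and 4.36, 3.82, 5.96 and 3.78 CPM at RST day 7, against 0.188, 0.593, 0.426 and 0.153 CPM in LST. Adamts17, a gene with variants known from human eye and growth disorders, overlapped LST at day 3 and did not at day 7, where the log2 difference was 3.67 ± 0.34 (adjusted p = 3.62e-09) (edgeR). Adamts10 and Adamts6, which act on fibrillin microfibrils, differed by 1.79 ± 0.15 (adjusted p = 1.23e-09) and 2.79 ± 0.25 (adjusted p = 2.35e-09) (edgeR). Adamts18 and Adamts19 reached at most 1.06 and 0.916 CPM in any library and differed by 2.21 ± 0.43 (adjusted p = 6.86e-05) and 3.46 ± 0.55 (adjusted p = 5.61e-06) at day 7 (edgeR). Their LST means were 0.15 and 0.0559 CPM, where a count of 3 is 0.128 to 0.153 CPM, so these differences rest on few LST counts. LST replicates 1 and 4 of Adamts17, at 0.188 and 0.153 CPM, were also near that level. Adamts13, the protease of von Willebrand factor, had 23 counts over all 24 joint libraries and was not tested there.

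The ADAMTS-like genes, which encode microfibril-binding proteins without a protease, had 2 members higher and 1 lower of 5 at RST day 7. Of all tested genes, 41% were higher and 35.1% lower at that day. Adamtsl5 had 44.7, 31.4, 36.4 and 31.8 CPM at RST day 3 and 23, 30.8, 24.6 and 26.2 CPM at RST day 7, against 56.7, 54, 67.7 and 59 CPM in LST. Adamtsl5 was the other member lower at day 7, and all RST libraries of both days lay below LST. It fell by 0.72 ± 0.13 on the log2 scale at day 3 (edgeR adjusted p = 5.2e-05) and by 1.18 ± 0.13 at day 7 (edgeR adjusted p = 5.56e-08). It had 54.5, 37.9, 51.7 and 37.3 CPM at RST day 14, 44.6, 43.6, 48 and 36 CPM at RST day 21 and 56.5, 57.3, 58.3 and 49.5 CPM at RST day 35. By day 35 the difference was -0.10 ± 0.13 (adjusted p = 0.902). Adamtsl4 had 17.6, 15.8, 18.3 and 15.8 CPM at RST day 3, against 30, 26.4, 34.8 and 29.5 CPM in LST. Adamtsl4 fell at day 3, by 0.84 ± 0.11 (edgeR adjusted p = 7.46e-07), with no overlap, and was 0.01 ± 0.11 (adjusted p = 0.914) at day 7. Adamtsl1 and Adamtsl3 were higher at day 7, by 1.37 ± 0.22 (adjusted p = 6.03e-06) and 1.62 ± 0.16 (adjusted p = 5.86e-09) (edgeR), with means of 20 ± 4.47 and 16.9 ± 0.552 CPM there, against 7.73 ± 1.53 and 5.48 ± 0.956 CPM in LST. Adamtsl2 had 2.6, 2.87, 2.14 and 2.15 CPM at RST day 3 and 2.51, 1.4, 2.26 and 1.98 CPM at RST day 7, against 1.51, 0.912, 2.04 and 2.76 CPM in LST. Adamtsl2, which binds latent TGF-beta binding protein, differed by 0.44 ± 0.34 (adjusted p = 0.263) at day 3 and 0.17 ± 0.35 (adjusted p = 0.654) at day 7 (edgeR).

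The ADAM genes known mainly from testis and epididymis were at low levels or not detected. Of 21 with a role there, 3 were tested in joint tissue, at 0.837 to 1.42 CPM (Adam1a), 0.279 to 0.397 CPM (Adam4) and 0.161 to 0.672 CPM (Adam5) over the RST group means. Adam5 and Adam4 passed the test at day 7, at 2.13 ± 0.41 (adjusted p = 6.19e-05) and 0.98 ± 0.41 (adjusted p = 0.0329) (edgeR). The LST means of Adam5 and Adam4 were 0.147 and 0.194 CPM, where a count of 3 is 0.128 to 0.153 CPM. Both differences rest on few LST counts. Of the exon bases of Adam1a, 63.7% are shared with a gene on the same strand, so its reads cannot be assigned with certainty.

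**Figure D2:**
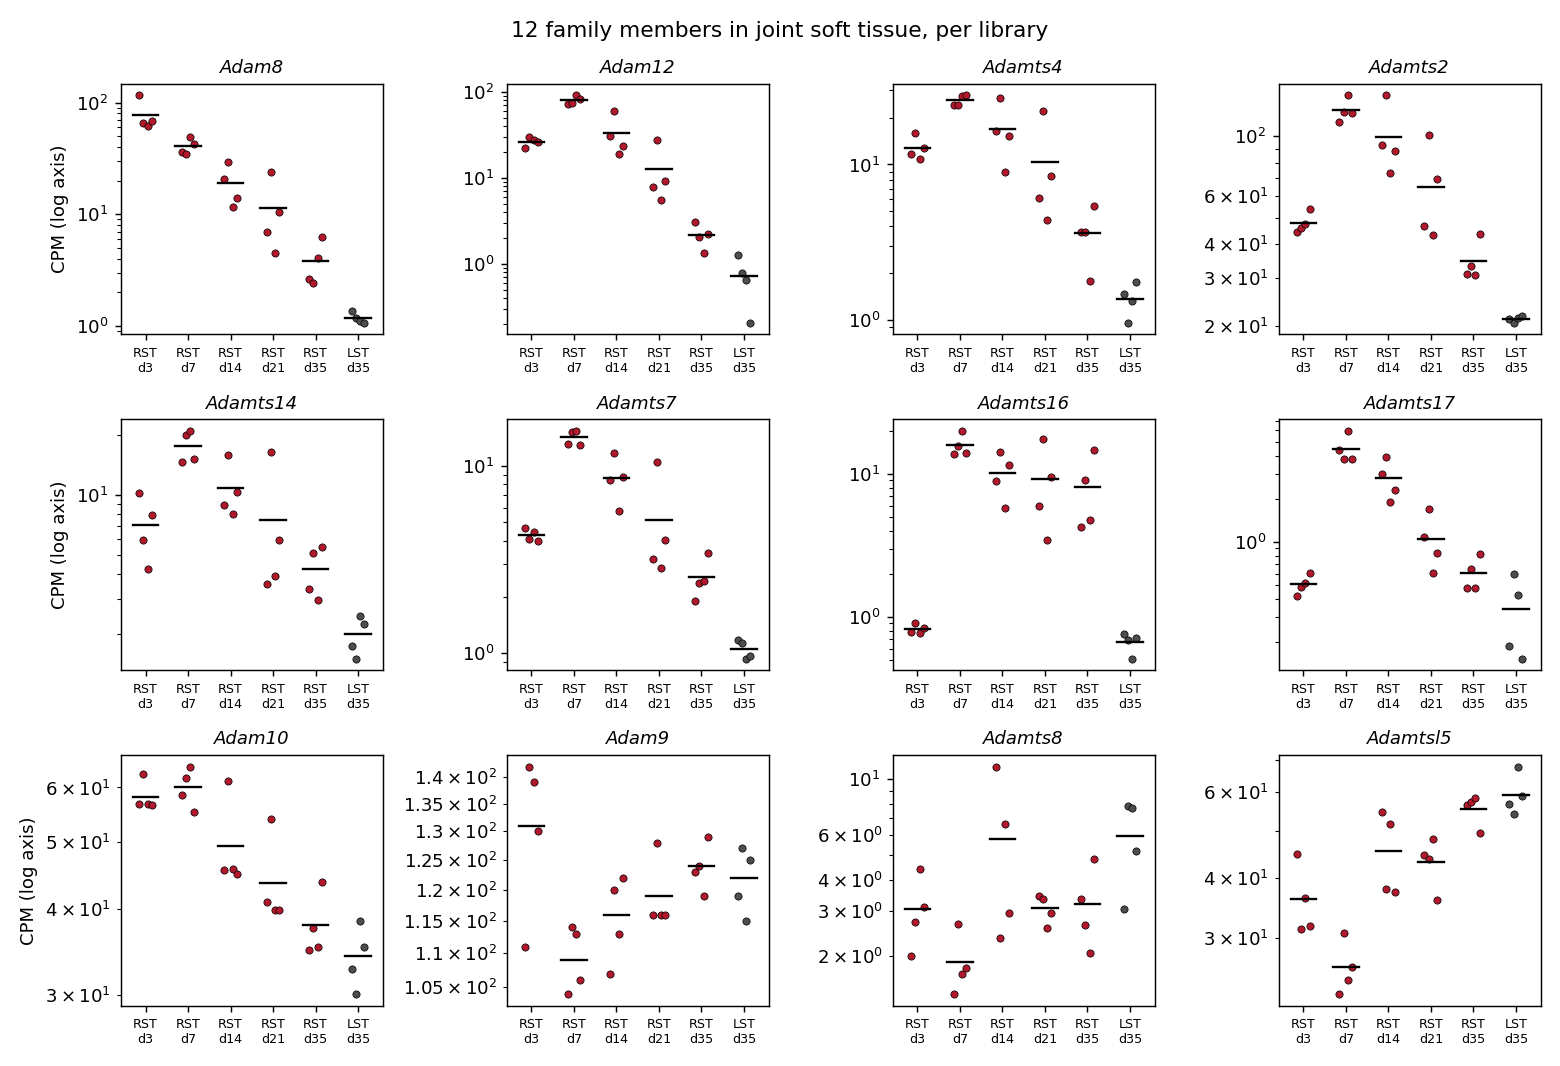
CPM per library (points, log axis) and group mean (lines) of 12 members at RST days 3 to 35 and in LST at day 35, 4 libraries a group. Adam8 is highest at day 3, Adam12, Adamts4, Adamts2, Adamts14, Adamts7, Adamts16 and Adamts17 at day 7, and Adamts8 and Adamtsl5 are lower at day 7 than in LST.

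Within RST tissue the level changed over days for 33 of 37 tested members (edgeR, 79.6% of all genes called). The highest of the 5 day means fell on day 3 for 6 members, on day 7 for 24, on day 14 for 6 and on day 35 for 1, Adamtsl5. The 6 of day 3 were Adam8, Adam9, Adam11, Adam15, Adam17 and Adamtsl2, so 5 of them are ADAM genes, and the 6 of day 14 were Adamts5, Adamts8, Adamts15, Adamts18, Adamts20 and Adamtsl4. Of those of day 3, only Adam8 and Adam9 were called lower at day 7 than at day 3. Of those of day 14, only Adamts8 was called higher at day 14 than at day 7. The highest day was not counted over all genes, so these counts have no share to be set beside.

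Against RST day 3, RST day 7 had 25 members higher and 3 lower, where 41.2% of all genes were called (18.7% higher, 22.5% lower). The 3 that fell were Adam8, by 0.93 ± 0.34, Adam9, by 0.26 ± 0.07, and Adamtsl5, by 0.46 ± 0.13 on the log2 scale (edgeR). The 4 members with the smallest p all rose: Adamts16 by 4.25 ± 0.46 (adjusted p = 3.84e-07), Adamts17 by 3.13 ± 0.31 (adjusted p = 1.52e-07), Adam23 by 1.82 ± 0.26 (adjusted p = 1.19e-05) and Adamtsl4 by 0.85 ± 0.11 (adjusted p = 3.99e-06) (edgeR). All 3 procollagen N-proteinases and both COMP-cleaving members rose at this step.

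Against RST day 7, RST day 14 had 2 members higher, Adamts8 and Adamtsl5, and 15 lower, with 38.9% of all genes called (20.9% higher, 18% lower). The count of members called was 6 to 21 when a library was left out, with 11 and 6 without RST day 7 replicate 2 and replicate 3 (35.8% and 27.7% of all genes), and 10, 6 and 8 without RST day 14 replicates 1, 3 and 4 (31.6%, 26.3% and 29.4%). Adamtsl5 rose by 0.79 ± 0.13 (adjusted p = 0.00016) and Adamts8 by 1.58 ± 0.40 (adjusted p = 0.00373) (edgeR). The Adamts8 libraries of RST days 7 and 14 overlapped, with replicates 1 and 3 of day 14 above the rest. Adamtsl3 fell by 0.76 ± 0.15 and Adam33 by 0.71 ± 0.17 (edgeR). Of the membrane sheddases 5 of 8 fell, Adam12 by 1.25 ± 0.36, and of the procollagen N-proteinases none of 3 passed the test.

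Against RST day 14, RST day 21 had 1 member called, Adamts17, which fell by 1.37 ± 0.30 on the log2 scale (edgeR, 0.737% of all genes called, 0.65% lower). Deviations of same-numbered replicates correlated at 0.124 to 0.757 in these groups, and those of unlike number at -0.658 to 0.373, so the ranges overlap. The labels do not say whether equal numbers mark a pair. With the number as a block over all joint groups 3 members were called (2.3% of all genes). With that block within these 2 groups, an alternative chosen after seeing the data, 13 members were called, all lower, where 17.1% of all genes were called. Among the 13, Adam12 fell by 1.53 ± 0.18 (edgeR adjusted p = 1.62e-05) and Adamts2 by 0.64 ± 0.11 (edgeR adjusted p = 0.000568). Without RST day 21 replicate 2, 16 members were called (27.2% of all genes), and without RST day 14 replicate 3, 9 were (8.05% of all genes). None was called without RST day 14 replicate 1 or 2, or without RST day 21 replicate 1, 3 or 4.

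Against RST day 21, RST day 35 had 8 members lower and none higher (edgeR, 3.97% of all genes called, 0.0805% higher and 3.89% lower): Adam12, Adam8, Adam19, Adamts2, Adamts4, Adamts9, Adamts12 and Adamts15. Adam12 fell by 2.57 ± 0.46 and Adam8 by 1.60 ± 0.41 on the log2 scale (edgeR). Without RST day 21 replicate 2, the library with the highest level for most members, Adam12 fell by 1.79 and was the 1 member called (0.213% of all genes), while Adam8 had a log2 difference of -0.93 (edgeR adjusted p = 0.363). Over 14 alternatives, Adam8 missed the threshold in 7, among them without RST day 35 replicate 2, and Adam12 in 1. Without RST day 21 replicate 3 or 4, 13 and 2 members were called (11.4% and 1.16% of all genes). Without RST day 35 replicate 1, 2 or 3, the counts were 1, 2 and 1 (0.408%, 0.316% and 0.25% of all genes).

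At day 35, RST and LST tissue of the same day could be compared. Adamts16 was called and no other member. The RST libraries lay above all LST libraries for 10 of the 37 members, where they did so for 10.1% of all 16149 tested genes, and below them for none, where 1.89% of all genes did. At an unadjusted p below 0.05, 13 members passed, where 12.5% of all genes did. DESeq2 called 7 members (4.85% of all genes), namely Adam8, Adam12, Adamts2, Adamts4, Adamts7, Adamts15 and Adamts16. With the replicate number as a block over all joint groups, 3 members were called (3.45% of all genes). With that block within these 2 groups, an alternative chosen after seeing the data, Adamts16 alone was called (2.15% of all genes), at 3.48 ± 0.46 on the log2 scale (edgeR adjusted p = 0.000277). Without RST day 35 replicate 1, 2 members were called (3.31% of all genes).

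**Figure D3:**
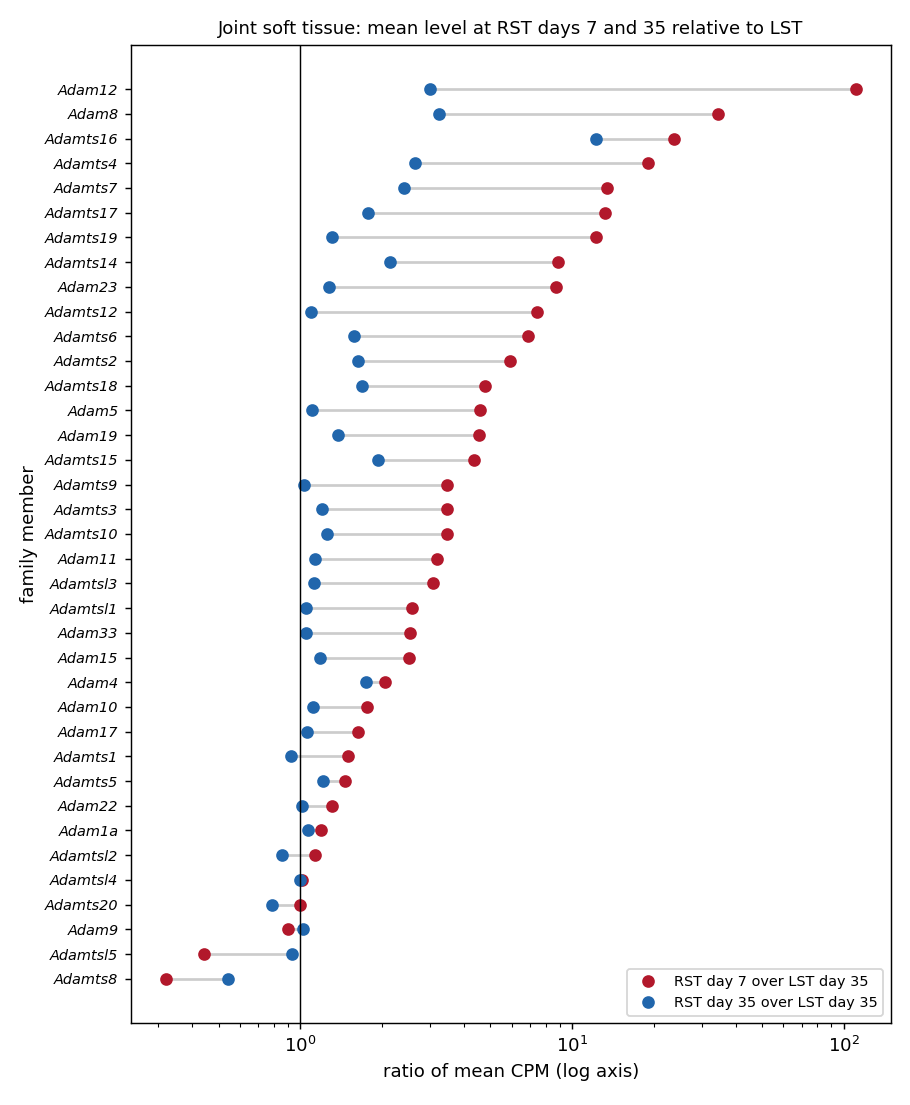
Ratio of mean CPM (log axis) of the 37 tested members at RST day 7 (red) and RST day 35 (blue) to LST day 35, ordered by the day 7 ratio. Adamts16 is at 23.7 at day 7 and 12.2 at day 35, while Adam12 is at 111 at day 7 and 2.99 at day 35.

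Genes of inhibitors and regulators of the family, and of the matrix and cell surface proteins it cuts, were read from 3 lists. Over all tested genes, 38.6% were higher and 30.1% lower at RST day 3, and 41% and 35.1% at day 7. At day 35, 2.92% of all genes were higher and 0.0495% lower. Of 21 inhibitors and regulators tested, 10 were higher and 4 lower at RST day 3, 14 higher and 6 lower at day 7 (median log2 fold change 0.66) and 3 higher at day 35. Timp1, an inhibitor of Adam10, was higher by 6.63 ± 0.50 (adjusted p = 3.66e-10) at day 7 and 4.22 ± 0.49 (adjusted p = 3.17e-05) at day 35 on the log2 scale (edgeR). Timp3, which inhibits Adam17, Adamts4 and Adamts5, fell by 1.29 ± 0.14 at day 3 (edgeR adjusted p = 6.08e-08) and by 0.47 ± 0.14 at day 7. Papln, which encodes papilin, an inhibitor of procollagen N-proteinase, fell by 3.11 ± 0.32 at day 3 (edgeR adjusted p = 2.71e-08). Pcsk5, a convertase that removes propeptides, was higher by 3.59 ± 0.36 (adjusted p = 1.01e-08) and Tspan5, which directs Adam10 traffic, by 1.76 ± 0.19 (adjusted p = 2.4e-08) at day 7 (edgeR).

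Of 18 matrix substrates tested, 12 were higher and 2 lower at RST day 3, 16 higher and none lower at day 7 (median log2 fold change 4.20) and 9 higher at day 35 (median 1.05). Acan, which encodes aggrecan, was higher by 8.38 ± 0.53 at day 7 and 3.57 ± 0.58 (adjusted p = 0.000823) at day 35, and Col1a1 and Col3a1, procollagen chains, by 5.85 ± 0.40 (adjusted p = 1.39e-10) and 4.95 ± 0.35 (adjusted p = 1.64e-10) at day 7 on the log2 scale (edgeR). Of 22 cell surface substrates tested, 15 were higher and 2 lower at day 3, 19 higher and 1 lower at day 7 (median 1.90) and 4 higher at day 35. Trem2, a receptor of macrophages that Adam10 and Adam17 shed, was higher by 7.24 ± 0.41 (adjusted p = 2.42e-11) at day 3, and Cxcl16, a membrane chemokine shed by Adam10, by 4.03 ± 0.29 (adjusted p = 1.9e-10) at day 7 (edgeR). Beside these counts, 38.6% of all tested genes were higher and 30.1% lower at day 3, 41% and 35.1% at day 7, and 2.92% and 0.0495% at day 35. All 3 lists were put together with earlier results of these data known.

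Members with and without the zinc site were counted at RST day 7, where 76.1% of all tested genes were called (41% higher, 35.1% lower). Of 21 tested members with the glycine form of the site, 19 were higher and none lower (median log2 fold change 2.21), and of 5 with the asparagine form, 4 were higher (median 1.79). Of 10 tested members without the site, 6 were higher and 1 lower (median 1.18), and Adamts8, with the serine form, was lower. No test between these counts was made.

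The region around a gene's start, reaching from before it into the gene, is shown for Adam8, the member with the largest difference at day 3. Windows of 300 bases from RefSeq (GRCm38.p6) matched 31 of the 57 members, in 33 windows, and were searched on both strands for the C/EBP motif TTGCNNAA and the AP-1 motif TGANTCA. Adam8, Adam15, Adam25 and Adam29 held the C/EBP motif, which 10.8% of all 32851 windows hold, and Adam19, Adam1b, Adam20, Adam25 and Adam29 held the AP-1 motif, which 7.81% hold. The window of Adam8 lies at chr7:139992513-139992812 (minus strand) and reads, 5′ to 3′ with the C/EBP match in capitals:
Adam8 promoter: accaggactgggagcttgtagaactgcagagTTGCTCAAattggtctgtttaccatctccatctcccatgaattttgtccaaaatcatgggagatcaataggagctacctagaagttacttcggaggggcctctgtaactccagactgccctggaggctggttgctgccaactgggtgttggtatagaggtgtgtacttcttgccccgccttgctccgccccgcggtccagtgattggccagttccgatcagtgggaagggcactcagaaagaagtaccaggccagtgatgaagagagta
A match of letters is a description and not a site of binding.

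In lymph nodes the family had other leading members. Adam10 had the highest level per kilobase in every node group, 32.9 to 35.3 CPM per kilobase over the 6 group means, and Adamts10 was the second, at 17.6 to 23.2. Adam10 ranged from 145 to 192 CPM over the 18 libraries and Adam17 from 104 to 129 CPM. Adamts13 had 4.79, 3.99 and 3.11 CPM in Implant nodes at day 7, against 3.83, 1.56 and 2.77 CPM in ContraImplant nodes and 3.45, 3.33 and 3.19 CPM in NoImplant nodes. The 3 groups of Adamts13 overlapped. Adam6b had 2.93, 2.29 and 2.45 CPM in Implant nodes at day 7, against 2.52, 2.14 and 2.46 CPM in ContraImplant nodes and 2.59, 2.24 and 2.07 CPM in NoImplant nodes. Adam6b overlapped too, and at day 14 its means were 1.53 to 2.35 CPM. Adamts16, at most 0.292 CPM in any library, was not tested. Adam6a, a near copy of Adam6b within the immunoglobulin heavy chain region, had at most 2 counts in any node library, and reads could be split between the copies.

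No member was called in any of the 8 node comparisons (edgeR). At day 7, Implant against NoImplant nodes had 0 of 36 members called where 0.0437% of all 18312 tested genes were (0.0382% higher, 0.00546% lower), with 8 members at an unadjusted p below 0.05 (18.2% of all genes), and Implant against ContraImplant nodes had 0 called (0.715% of all genes, 0.541% lower) with 11 members at an unadjusted p below 0.05 (20.6%). At day 14 both comparisons again had 0 called, where 5.97% of all genes were called against NoImplant (2.53% lower) and 0% against ContraImplant, with 11 (28.4%) and 0 (8.46%) at an unadjusted p below 0.05. ContraImplant against NoImplant nodes had 0 called and 0% of all genes at either day, with 3 and 6 members at an unadjusted p below 0.05 (7.37% and 5.8% of all genes) at days 7 and 14. The change of the Implant difference between the days had 0 called against either group (0% of all genes), with 0 members and 3 members at an unadjusted p below 0.05 (5.03% and 1.82% of all genes) for NoImplant and ContraImplant. The animal as a block left the counts of Implant against ContraImplant at 0 (0.106% of all genes called at day 7 and 0% at day 14). Without ContraImplant day 7 replicate 1, 5 members were called against ContraImplant at day 7 (Adam12, Adam19, Adamts8, Adamts10 and Adamts13), where 10.9% of all genes were, and without NoImplant day 14 replicate 1, Adamts6 was called against NoImplant at day 14 (8.33% of all genes).

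The members with the smallest p at day 7 were Adam19, Adam12, Adamts3 and Adamts8, and they are named with their values known. How many of all tested genes have node groups that do not overlap was not counted. Adam19 had 122, 126 and 122 CPM in Implant nodes at day 7, against 113, 90.1 and 99.7 CPM in ContraImplant nodes and 99.5, 99.1 and 89.9 CPM in NoImplant nodes. All Implant libraries lay above the others. Adam12 had 19.7, 18.3 and 19.2 CPM in Implant nodes at day 7, against 12.8, 11.3 and 11 CPM in ContraImplant nodes and 9.7, 13.2 and 8.7 CPM in NoImplant nodes. Here too no Implant library overlapped the others. Adamts8 had 6.15, 8.35 and 8.86 CPM in Implant nodes at day 7, against 4.89, 1.51 and 4.02 CPM in ContraImplant nodes and 2.68, 3.4 and 3.71 CPM in NoImplant nodes. The 3 Implant libraries were the highest. Against NoImplant the log2 differences were 0.36 ± 0.08 (adjusted p = 0.0632) for Adam19, 0.86 ± 0.19 (adjusted p = 0.0668) for Adam12 and 1.25 ± 0.33 (adjusted p = 0.0947) for Adamts8 (edgeR). Against ContraImplant they were 0.29 ± 0.08 (adjusted p = 0.0726), 0.70 ± 0.19 (adjusted p = 0.0819) and 1.15 ± 0.32 (adjusted p = 0.0888) in the same order (edgeR). Implant and ContraImplant nodes came from the same mice, and the fit behind these values had no block for the animal. The 2 comparisons share the Implant libraries.

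DESeq2 called 4 members in Implant against NoImplant nodes at day 7 (4.01% of all genes), Adam12, Adam19, Adamts3 and Adamts8, and 7 in Implant against ContraImplant nodes (6.08% of all genes), Adam12, Adam19, Adam23, Adamts2, Adamts6, Adamts8 and Adamts10. At day 14 it called 4 against NoImplant (13.3% of all genes), Adam19, Adam23, Adamts2 and Adamts6. It called none in the other 5 comparisons. Adam23 had 36.6, 31.3 and 34.6 CPM in Implant nodes at day 7, against 51.5, 39.9 and 56.6 CPM in ContraImplant nodes and 49.4, 49.7 and 42.7 CPM in NoImplant nodes. Adam23 was lower in Implant nodes, and its Implant libraries lay below the others. Adamts2 had 22.8, 17.7 and 22.2 CPM in Implant nodes at day 7, against 13, 12.3 and 11.3 CPM in ContraImplant nodes and 9.19, 18.4 and 12.5 CPM in NoImplant nodes. The NoImplant libraries of Adamts2 reached into the Implant range.

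Marker sums also differed between node groups. At day 7 the 10 fibroblast markers summed to 1610 to 1850 CPM in Implant nodes, against 1060 to 1190 CPM in ContraImplant and 1210 to 1440 CPM in NoImplant nodes, and the 7 endothelial markers to 596 to 651 CPM, against 795 to 1440 and 841 to 877 CPM. The 7 adipocyte markers summed to 206 to 570 CPM in Implant nodes, against 59.5 to 5010 and 564 to 2230 CPM, and the 8 B cell markers to 4530 to 4960 CPM, against 3250 to 4640 and 3920 to 4400 CPM. The 8 macrophage markers summed to 1400 to 1620 CPM in Implant nodes, against 1720 to 1920 CPM in ContraImplant and 1320 to 1550 CPM in NoImplant nodes, and the 14 mature muscle markers to 31.5 to 185 CPM, against 26.5 to 1030 and 32.4 to 1690 CPM. Mb, a muscle marker, was at 0 in the Implant nodes of day 7. The part of these cells in the node values was not tested. Adam8 had 57.3, 41.1 and 44.4 CPM in Implant nodes at day 7, against 72.7, 36.8 and 57 CPM in ContraImplant nodes and 59.5, 55.6 and 72.9 CPM in NoImplant nodes. Adam8 overlapped between all 3 node groups of day 7.

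**Figure D4:**
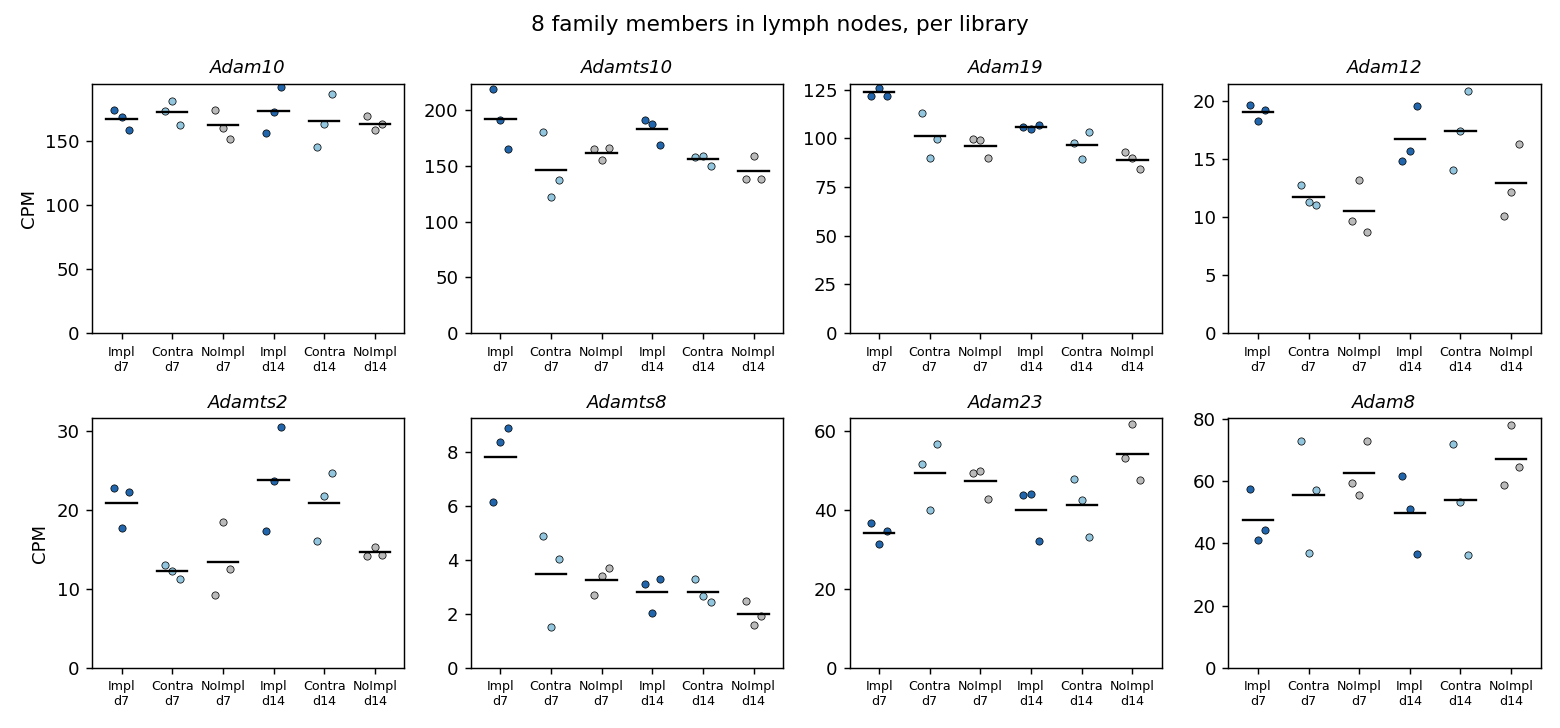
CPM per library (points) and group mean (lines) of 8 members in Implant, ContraImplant and NoImplant nodes at days 7 and 14, 3 libraries a group. At day 7 the Implant libraries of Adam19, Adam12 and Adamts8 lie above, and those of Adam23 below, all libraries of both other groups. None of these members was called by edgeR, and how many of all tested genes separate this way was not counted.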

How the data were processed

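Joint soft tissue was lysed in Trizol and lymph nodes in RLT, and libraries were made from total RNA with the NEBNext Ultra II kit, per the labels' protocols. The submitters' processing notes name fastp, STAR and the mm10 build; no source used here gives versions, the counting program or its strand setting. The authors deposited whole-number counts per gene, 1 table per tissue, with no normalization.

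Each table was fitted once over all its groups with edgeR 4.0.16 (R 4.3.3): genes passing filterByExpr at a minimum count of 10, TMM factors, the quasi-likelihood F test, and Benjamini-Hochberg adjustment over 16149 joint or 18312 node genes in each of 18 comparisons. CPM values are on the TMM scale. Alternatives were DESeq2 1.42.0, other scalings, no filter, only the groups compared, a replicate block and each library left out. The fit was tested on simulated counts. Values in every library are given for the members with the 6 largest rises and 4 largest falls among those called, with a mean count of at least 50, at RST days 3, 7 and 35, and for members of textbook interest; up to 4 with the smallest p are named in steps between days and in partner lists. Node members, of which none was called, the other members placed by role, and the step genes beyond these were named with their values known. The members and lists were chosen with earlier results of these data known. No pair of replicates agreed within sampling noise (lowest chi-square per degree of freedom 8.27).

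Same-numbered joint replicates had correlations all above 0.1 in 2 pairs of groups that were compared. These were RST and LST at day 35 (0.129 to 0.301) and RST days 21 and 14 (0.124 to 0.757). Replicates of unlike number had -0.3 to 0.17 and -0.658 to 0.373 in the same order, so the ranges overlap. The labels do not say whether equal numbers mark a pair. In nodes the animal numbers in the labels pair Implant with ContraImplant (0.114 to 0.401 at day 7, 0.27 to 0.536 at day 14).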

Additional observations from a re-analysis of the deposited data

Results flagged for a closer look

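In 108 groups of 4 joint libraries looked at (18 members in 6 groups), 7 had a library far from the other 3, where chance gives about 1 in 20. A library was counted as far when its gap to the nearest of the others, divided by the range of the group, was above Dixon's critical value for 4 values.

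Adam8 had 117 CPM in RST day 3 replicate 1, a gap of 0.877 of the range. Adam10 had 62.7 CPM in RST day 3 replicate 2 (0.961), 61.3 CPM in RST day 14 replicate 2 (0.954) and 54.1 CPM in RST day 21 replicate 2 (0.919). Adam12 had 28 CPM and Adamts7 10.5 CPM in RST day 21 replicate 2 (0.841 and 0.849), and Adam17 had 51.8 CPM in RST day 7 replicate 3 (0.941). All 7 lay above the other 3 libraries of their group, and 3 of the 7 are RST day 21 replicate 2.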

How the results depend on the processing

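No result of the members changed its direction among called values under any alternative run. The counts of members called against LST at RST days 3, 7, 14 and 21, at RST day 7 against day 3 and over all RST days stayed within 1.5 times under every alternative. At RST day 35 against LST the count of 1 was 7 with DESeq2 (4.85% of all genes) and 6 with no filter on low counts (2.05%). It was 8 with only the groups compared (6.46%) and 1 to 2 with a library left out (1.11% to 3.31%). At RST day 21 against day 14 the count of 1 was 6 with DESeq2 (7.54% of all genes) and 7 with no filter (1.56%). It was 0 with only the groups compared (0%) and 0 to 16 with a library left out (0.0122% to 27.2%). At RST day 35 against day 21 the count of 8 was 0 with only the groups compared (0% of all genes). It was 1 to 13 with a library left out (0.213% to 11.4%). At RST day 14 against day 7 the count of 17 was 6 to 21 with a library left out (26.3% to 46.1%). In nodes the count of 0 for Implant against NoImplant at day 7 was 4 with DESeq2 (4.01% of all genes) and 6 with only the groups compared (6.52%). At day 14 it was 4 with DESeq2 (13.3%) and 0 to 1 with a library left out (0% to 8.33%). For Implant against ContraImplant at day 7 the count of 0 was 7 with DESeq2 (6.08%) and 0 to 5 with a library left out (0% to 10.9%). The cause was not tested.

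With the replicate number as a block over all joint groups, 3 members were called at RST day 35 against LST (3.45% of all genes). At RST day 21 against day 14 it was 3 as well (2.3%). With the block within the pair of groups, an alternative chosen after seeing the data, the count was 13 at RST day 21 against day 14 (17.1% of all genes). It was 1 at RST day 35 against LST (2.15%). This alternative was run for these 2 comparisons. The block over all joint groups moved no count of the other joint comparisons by over 1.5 times.

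Depth limits the members under about 1 CPM, such as Adam4 and Adam5, whose group sums were 13 to 78 counts. It also limits Adamts18 and Adamts19, with LST means of 0.15 and 0.0559 CPM. LST was sampled at day 35 alone, and the number of libraries, 4 or 3 a group, limits the precision.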
